A study of Mus musculus with 45 samples.

Results

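The B cell receptor and coreceptor genes are 9 genes whose symbols were looked up among the 55450 rows of the count table, and all 9 were found: the receptor chains Cd79a and Cd79b, the surface proteins Ms4a1 (CD20), Cr2 (CD21), Cd22 and Cd72, and the proximal signaling genes Syk, Blnk and Btk. They were measured by RNA-seq in 45 samples of sorted lymphocytes from the draining popliteal lymph nodes of mice immunized in the footpad with 20 µL of an IFA emulsion holding 50 µg OVA and 5 µg LPS. WT littermates (C57/BL6 background) were compared with S1PR4-/- mice (B6.129P2-S1pr4tm1Dgen/J, backcrossed at least 10 times), of either sex and 8 to 12 weeks of age, and the allele is carried in the germline, so that lymphocytes are not the only cells without the receptor. GC B cells (B220+ GL7+ Fas+) and non-GC B cells (B220+ GL7- Fas-) were sorted on day 9, and Tfh (TCRβ+ CD4+ PD1+ CXCR5+) and non-Tfh cells (PD1- CXCR5-) on day 6, so that between B and T cells the population and the day cannot be told apart. There were 5 WT and 4 S1PR4-/- non-GC B samples and 6 samples in each of the other 6 groups.

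In B cells, membrane immunoglobulin binds antigen and the Cd79a/Cd79b pair carries the signal across the membrane. The kinase Syk docks on the phosphorylated pair, the adaptor Blnk assembles the complex around it, and the kinase Btk activates the phospholipase Plcg2. Cr2, which binds complement fragments, works with partner proteins at the surface to lower the threshold for signaling, whereas Cd22 and Cd72 recruit phosphatases that restrain it. In germinal centers, where B cells mutate their receptors and compete for antigen and T cell help, receptor signaling is known to be dampened.

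Libraries held between 26299406 and 45548182 counts. S1pr4 had 0 to 40 counts in the 22 S1PR4-/- samples and 505 to 6305 in the 23 WT samples, which matches every genotype label. The sorted populations carried their defining markers: the summed level of 12 T cell markers was 6958 to 9796 CPM (counts per 1e+06 counts) in T cell samples and 3.76 to 101 CPM in B cell samples, with no T cell marker at 0 throughout a T cell group. The summed level of 12 B cell markers that are not among the 9 genes was 19901 to 61199 CPM in B cell samples and 166 to 1363 CPM in T cell samples. The 8 GC B markers summed to 1431 to 2595 CPM in GC B and 128 to 184 CPM in non-GC B samples, and the 6 Tfh markers to 2237 to 3401 CPM in Tfh and 205 to 470 CPM in non-Tfh samples. The methods give 6 mice of each genotype for the sorts, but no label ties a sample to a mouse, so p-values measure the spread between samples.

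All 9 genes were abundant in non-GC B cells. Genes were compared per kilobase of exon, with exons merged over all annotated transcripts, so their order rests in part on the annotation. The level in WT non-GC B was highest for the receptor chains, Cd79a at 1854 ± 129 and Cd79b at 1747 ± 98.0 CPM per kb (mean ± SD, n = 5), which lie within each other's spread. Cd22 followed at 468 ± 27.0 and Ms4a1 at 331 ± 9.26 CPM per kb, then Cd72 at 216 ± 19.4 CPM per kb. The lowest were Blnk (113 ± 5.77), Cr2 (101 ± 10.9), Btk (100.3 ± 12.1) and Syk (88.2 ± 18.6 CPM per kb), whose sample spreads met. The order of the first 6 genes was the same in S1PR4-/- non-GC B. In GC B of both genotypes Ms4a1 stood before Cd22, the receptor chains lay within each other's spread, as did Blnk and Cd72, and Cr2 came last, at 43.6 ± 9.30 in WT and 40.4 ± 6.60 CPM per kb in S1PR4-/- cells (n = 6 each).

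**Figure D1:**
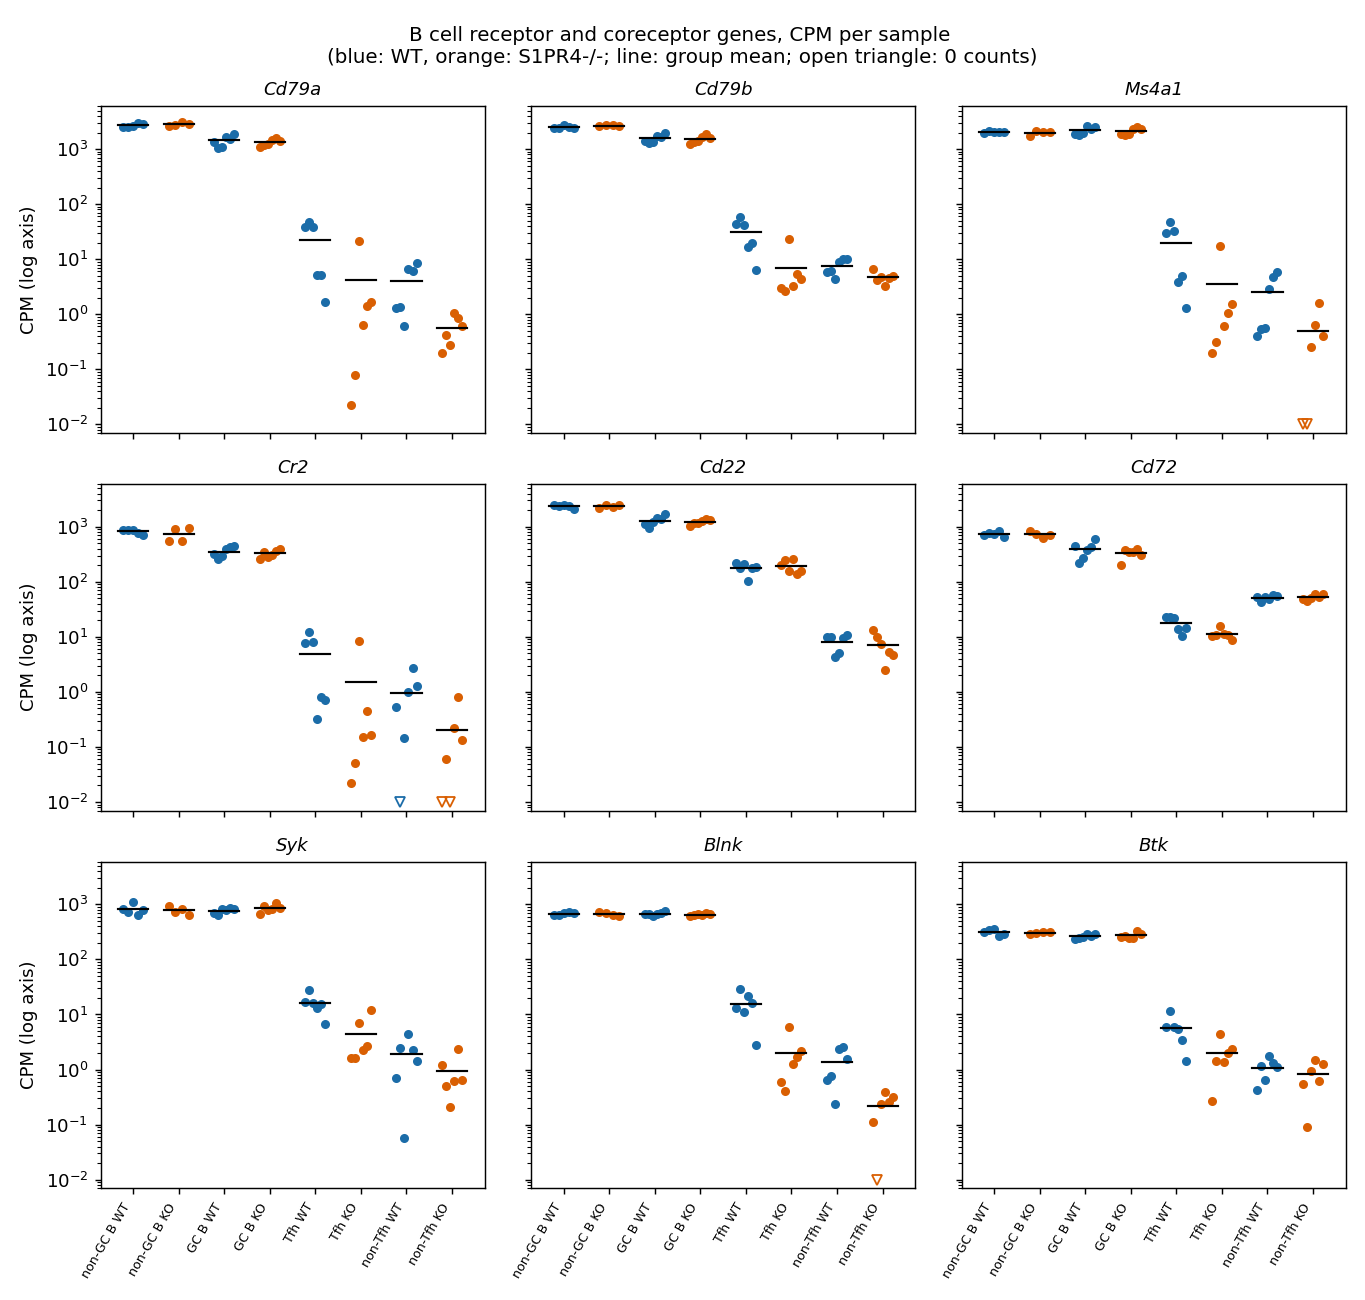
Level of each of the 9 genes in all 45 samples, in CPM on a log axis, with blue points for WT and orange points for S1PR4-/- samples, black lines for group means and open triangles for samples with 0 counts. All B cell samples lie far above the T cell samples; within T cells, Cd22 is high in all 12 Tfh samples and Cd72 is higher in non-Tfh than in Tfh samples.

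The receptor chains and 3 surface proteins were at lower CPM in GC B than in non-GC B cells, whereas Ms4a1, Syk, Blnk and Btk did not pass the test. In WT cells 5 of the 9 genes were lower in GC B (edgeR quasi-likelihood test, adjusted p under 0.05 and fold change over 1.5) and 0 were higher, against 47.8% of all 13324 tested genes called in either direction and 23.1% called lower and 24.8% higher. In S1PR4-/- cells the same 5 genes were lower and 0 were higher, against 48.2% of 13484 tested genes called 22.9% lower and 25.3% higher. The median log2 fold change of the 9 genes was -0.62 in WT and -0.75 in S1PR4-/- cells, beside 0.0021 and 0.034 over all tested genes. The summed level of the 12 other B cell markers was lower in GC B too, at 19901 to 33140 CPM against 50274 to 61199 CPM in non-GC B samples of both genotypes, with no marker at 0, and its part in the result was not tested. The B220 gate also admits plasmacytoid dendritic cells, whose 4 markers summed to 0.102 to 66.2 CPM in non-GC B and 0.121 to 3.69 CPM in GC B samples. The 10 myeloid markers summed to 18.7 to 82.4 CPM in non-GC B and 104 to 316 CPM in GC B samples, and the 8 plasma cell markers to 513 to 861 CPM in non-GC B and 2061 to 17946 CPM in GC B samples, and their part in the result was not tested. CPM are relative to all counts of a library, so a lower CPM does not give the amount of RNA per cell, which was not measured. In bulk samples, fewer cells that express a gene and a smaller share in each cell cannot be told apart.

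Cd79a (chr7:24897381-24902197 in mm10, GENCODE M21, plus strand) was at 2541, 2515, 2674, 2958 and 2819 CPM in the 5 WT non-GC B samples. In the 6 WT GC B samples it ran from 1067 to 1917 CPM with a median of 1437 CPM. Each GC B sample lay below every non-GC B sample, with a log2 fold change of -0.85 (SE 0.139, edgeR adjusted p = 0.000137). The 4 S1PR4-/- non-GC B samples were at 2648, 2797, 3107 and 2876 CPM and the S1PR4-/- GC B samples at 1070 to 1610 CPM, median 1310 CPM. These groups did not overlap either (log2 fold change -1.05, SE 0.115, edgeR adjusted p = 1.17e-05).

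Its partner Cd79b (chr11:106311341-106314762, minus strand) fell less. WT non-GC B samples were at 2422, 2439, 2745, 2486 and 2407 CPM and WT GC B samples at 1308 to 1925 CPM, median 1532 CPM. The groups were apart, but the log2 fold change of -0.62 (SE 0.102, edgeR adjusted p = 0.000154) was close to the limit of 0.585 that a 1.5-fold change sets. Leaving out GC B replicate 2, GC B replicate 3 or non-GC B replicate 3 brought it to -0.58, -0.57 and -0.58, short of that limit, so that 4 genes were then called. S1PR4-/- non-GC B samples were at 2625, 2707, 2702 and 2605 CPM and GC B samples at 1244 to 1870 CPM, median 1501 CPM (log2 fold change -0.75, SE 0.110, edgeR adjusted p = 0.000109).

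Among the coreceptors, Cr2 (chr1:195136811-195176716, minus strand) had the lowest fold change of the 9. It was at 890, 890, 875, 755 and 700 CPM in WT non-GC B and at 262 to 449 CPM, median 350 CPM, in WT GC B (log2 fold change -1.15, SE 0.135, edgeR adjusted p = 7.88e-06). The S1PR4-/- non-GC B samples differed among themselves, at 559, 902, 550 and 961 CPM, yet all lay above the GC B samples at 259 to 398 CPM, median 329 CPM (log2 fold change -1.12, SE 0.181, edgeR adjusted p = 0.00022). Follicular dendritic cells are also known to hold Cr2, and the 6 of 7 of their markers found in the table summed to 7.43 to 16.0 CPM in GC B and 12.4 to 20.7 CPM in non-GC B samples. Their part in the Cr2 values was not tested.

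Cd22 (chr7:30865402-30880342, minus strand), an inhibitory lectin, was at 2490, 2357, 2435, 2382 and 2134 CPM in WT non-GC B and at 930 to 1668 CPM, median 1301 CPM, in WT GC B. The groups were apart (log2 fold change -0.81, SE 0.124, edgeR adjusted p = 8.6e-05). S1PR4-/- samples were at 2216, 2516, 2306 and 2436 CPM in non-GC B and 1041 to 1408 CPM, median 1214 CPM, in GC B (log2 fold change -0.89, SE 0.0929, edgeR adjusted p = 7.89e-06).

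Cd72 (chr4:43446462-43454628, minus strand), an inhibitory receptor of another family, was at 703, 759, 733, 836 and 660 CPM in WT non-GC B. Its WT GC B samples ran from 223 to 590 CPM with a median of 401 CPM and lay below the non-GC B samples (log2 fold change -0.87, SE 0.197, edgeR adjusted p = 0.00172). S1PR4-/- samples were at 840, 752, 613 and 712 CPM in non-GC B and at 204 to 392 CPM, median 350 CPM, in GC B (log2 fold change -1.09, SE 0.159, edgeR adjusted p = 0.000106). Cd72 shares 1423 bp, 41.6% of its exon length, with Tesk1 on the opposite strand, and both genes had values that were not whole numbers in 44 of 45 samples, as when reads are divided between genes. Tesk1 was lower in GC B as well (log2 fold change -0.93 in WT and -0.86 in S1PR4-/- cells), at 40.4 ± 4.31 CPM in WT GC B and 80.4 ± 5.93 CPM in WT non-GC B. Whether the counting used strand is not given in the sources used here, so reads from the shared exons cannot be told apart.

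Ms4a1 (chr19:11249675-11266241, minus strand), the CD20 antigen, did not follow the other surface genes. It was at 1971, 2127, 2075, 2048 and 2030 CPM in WT non-GC B and from 1827 to 2615 CPM, median 2162 CPM, in WT GC B. The ranges overlapped and the log2 fold change was 0.16 with a 95% interval of -0.056 to 0.38. S1PR4-/- samples were at 1750, 2101, 2043 and 2056 CPM in non-GC B and 1790 to 2525 CPM, median 2064 CPM, in GC B, with a log2 fold change of 0.15 and an interval of -0.12 to 0.41.

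The signaling genes behind the receptor had similar ranges in the B cell populations. Syk (chr13:52583173-52648792, plus strand) was at 817, 741, 1115, 652 and 802 CPM in WT non-GC B and 649 to 842 CPM, median 810 CPM, in WT GC B, with an interval for the log2 fold change of -0.31 to 0.25. Blnk (chr19:40928927-40994535, minus strand) was at 647, 640, 694, 719 and 700 CPM in WT non-GC B and 621 to 768 CPM, median 668 CPM, in WT GC B, with an interval of -0.083 to 0.21. Btk (chrX:134542336-134583570, minus strand) was at 321, 340, 362, 267 and 289 CPM in WT non-GC B and 236 to 289 CPM, median 261 CPM, in WT GC B. Its log2 fold change of -0.20 had an interval of -0.39 to -0.014 and did not pass the adjusted test (edgeR adjusted p = 0.0542). In S1PR4-/- cells the intervals were -0.11 to 0.48 for Syk, -0.14 to 0.16 for Blnk and -0.29 to 0.072 for Btk. All of these intervals lie within a 1.5-fold change of 0.

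**Figure D2:**
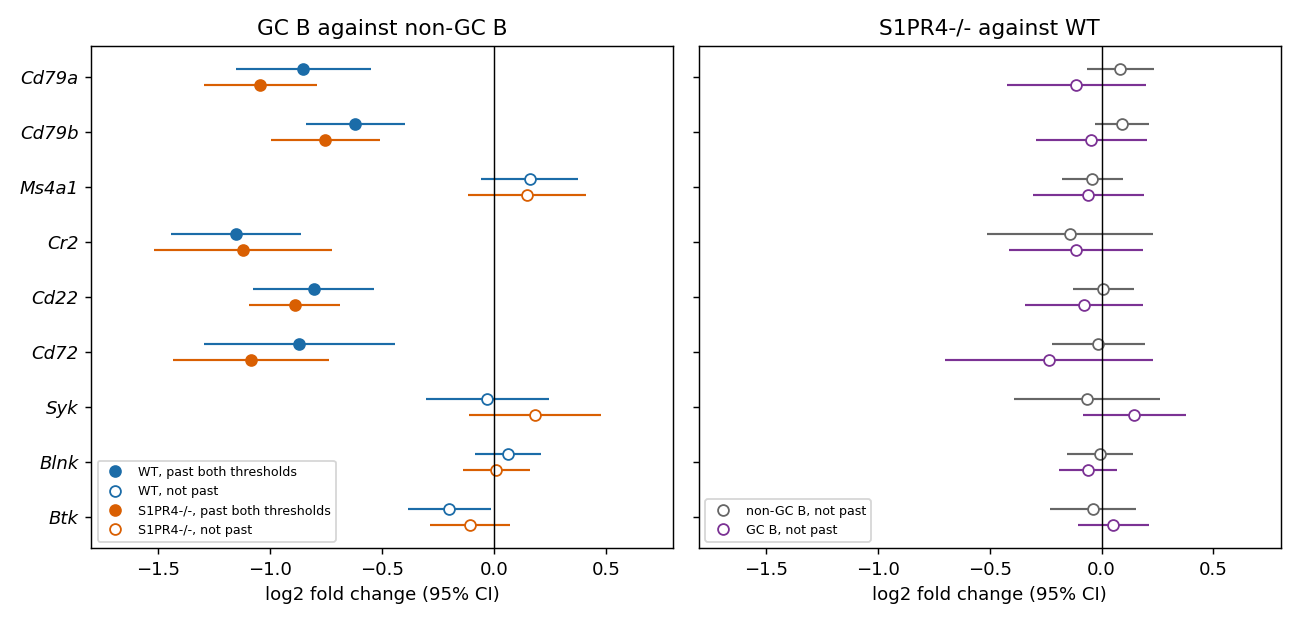
Log2 fold changes of the 9 genes with 95% confidence intervals, for GC B against non-GC B cells (left, blue for WT and orange for S1PR4-/-) and for S1PR4-/- against WT cells (right, grey for non-GC B and purple for GC B); filled points passed both thresholds. On the left the same 5 genes are filled in both genotypes, and on the right every interval includes 0.

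Samples within the GC B groups differed along their replicate numbers. Cd79a was at 1067 to 1365 CPM in WT GC B samples 1 to 3 and at 1509 to 1917 CPM in samples 4 to 6, and at 1070 to 1230 CPM against 1391 to 1610 CPM in S1PR4-/- cells. The summed level of 8 plasma cell markers ran the other way, with 5093 to 8886 CPM in WT samples 1 to 3 against 4043 to 4569 CPM in samples 4 to 6, and 5701 to 17946 CPM against 2061 to 2468 CPM in S1PR4-/- cells. No label says what the numbers mark. With immunoglobulin genes, which took 1.45% to 18.0% of all counts in S1PR4-/- GC B, left out of the table, 5 of the 9 genes were called in each genotype. With all 8 groups in a single edgeR fit, which estimates the spread over T cells too, 2 genes, Cd22 and Cd72, were called in each genotype, and Cd79a had a log2 fold change of -0.91 (adjusted p = 0.238) in WT cells.

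Sequence before the RefSeq start of transcription was available for 7 of the 9 genes (RefSeq, GRCm38.p6), and 250 bases before each start were searched on both strands for AGGAAGT, the core of many Ets factor sites, for the octamer ATGCAAAT and for CCCNNGGG, a core bound by EBF factors. Over all 32851 such windows, 7.69% held the first, 1.6% the second and 11.8% the third. AGGAAGT was found in the windows of Cd79a, Cd72 and Blnk, the octamer in that of Blnk, and CCCNNGGG in that of Cd22, and none of the 3 in those of Cr2, Syk and Btk. RefSeq and GENCODE M21 place the starts differently: all 250 bases of the Blnk window, 116 of the Cd79a window, 102 of the Cd22 window and 2 of the Cd72 window lie in exons of the same gene in GENCODE M21, and the matches of Cd79a, Blnk and Cd22 lie inside the gene bounds given above. So do all 250 bases of the Syk window at chr13:52583187-52583436 and 29 of that at chr13:52596632-52596881. The RefSeq starts of Syk lie 264 and 13709 bases inside its GENCODE bounds and that of Btk 430 bases inside. The lack of matches in Syk and Btk thus does not describe sequence before their GENCODE starts. The matches are given as a description and do not follow the GC B calls. Blnk, which was not called, shares AGGAAGT with Cd79a and Cd72, and Cr2, which was called lower, holds no match. Capitals mark the match, each window is 30 bases written 5′ to 3′ on the strand of the gene, and the matches do not overlap each other.
Cd79a (chr7:24897431-24897460, plus strand): cacggctgaacAGGAAGTgaggcggagttt
Cd72 (chr4:43454657-43454686, minus strand): gccaaagacctACTTCCTcttttatgactt
Blnk, Ets core (chr19:40994405-40994434, minus strand): ttgggacaaacAGGAAGTagtgctcagtca
Blnk, octamer (chr19:40994333-40994362, minus strand): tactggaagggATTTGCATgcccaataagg
Cd22 (chr7:30879058-30879087, minus strand): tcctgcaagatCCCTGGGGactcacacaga
In Cd72 and in the Blnk octamer the match lies on the other strand, and it begins 55 bases before the RefSeq start in Cd79a and 49 bases before it in Cd72. A match is a stretch of letters and not a measured site.

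The other genes of the receptor pathway were read from a list of 64 in 4 roles, all of which were tested in both genotypes. In WT cells 30 of the 64 were lower and 4 were higher in GC B, with a median log2 fold change of -0.38, beside 23.1% of all tested genes called lower and 24.8% higher. In S1PR4-/- cells 27 were lower and 4 higher, with a median of -0.45, beside 22.9% and 25.3% of all tested genes. The role counts that follow are small and are given as a description. Of 14 coreceptors and surface regulators, 9 were lower and 2 higher in WT cells, among them the paired inhibitory receptor Pirb (log2 fold change -1.91, SE 0.227), the low-affinity IgE receptor Fcer2a (-1.72, SE 0.136) and the glycoprotein Cd24a (1.51, SE 0.120). Of 14 kinases and phosphatases, 6 were lower and 1 higher, with the receptor phosphatase Ptprj at -2.28 (SE 0.279) and the phosphatase Ptpn22 at -1.37 (SE 0.416). Of 16 adaptors, 6 were lower and 0 higher, led by the exchange factor Vav3 at -2.30 (SE 0.253), Sh3bp2 at -1.73 (SE 0.173) and the scaffold Bank1 at -1.41 (SE 0.153). Of 20 downstream signaling genes, 9 were lower and 1, the kinase Akt1, was higher at 1.52 (SE 0.0784), while the calcium channel Itpr1 was at -1.28 (SE 0.162) and the paracaspase Malt1 at -1.20 (SE 0.111).

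**Figure D3:**
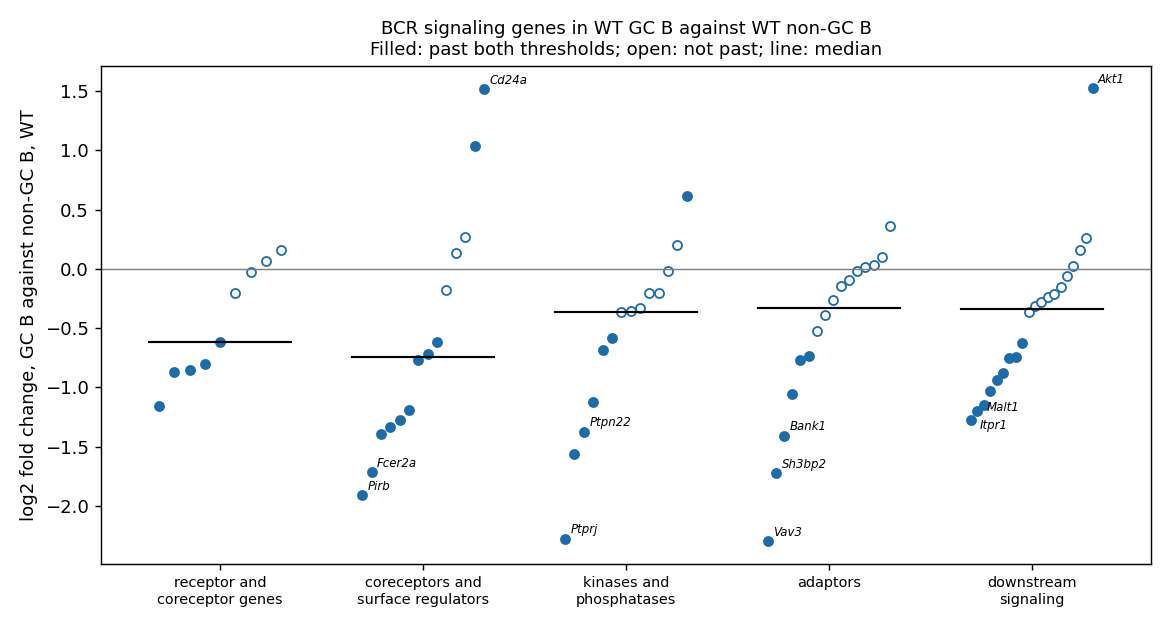
Log2 fold change of the 9 receptor and coreceptor genes and of 64 other genes of the pathway in WT GC B against WT non-GC B cells, by role; filled points passed both thresholds and lines mark medians. Most filled points lie below 0 in each role, with Cd24a and Akt1 at the top.

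The T cell counterparts of the signaling genes were also measured in B cells. Lcp2 (SLP-76), the T cell relative of Blnk, was at 0.473 to 1.97 CPM in WT non-GC B and at 72.8 to 104.9 CPM, median 81.6 CPM, in WT GC B, with a log2 fold change of 6.48 (SE 0.324, edgeR adjusted p = 7.33e-09). Its level in S1PR4-/- cells was 0.972 to 1.39 CPM in non-GC B and 70.1 to 120 CPM, median 98.8 CPM, in GC B (log2 fold change 6.51, SE 0.243, edgeR adjusted p = 6.21e-09). No GC B sample overlapped a non-GC B sample in either genotype, whereas the ranges of Blnk overlapped. Zap70, the T cell relative of Syk, was lower in GC B, at 0.820 ± 0.246 CPM against 2.99 ± 0.682 CPM in WT non-GC B, and was at 246 CPM or more in every T cell sample. The 12 T cell markers summed to 8.88 to 101 CPM in GC B samples, 3.76 to 16.2 CPM in non-GC B and 6958 CPM or more in T cell samples. Whether these T cell markers had a part in the Lcp2 values was not tested.

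S1PR4 deficiency was compared next. In GC B cells 0 of the 9 genes passed the edgeR test, DESeq2 or limma-voom, against 0.0612% of 13070 tested genes called by edgeR, S1pr4 among them. An unadjusted edgeR p under 0.05 was found for 0 of the 9, beside 540 of the 13070 genes. The largest fold change was that of Cd72, at 387 ± 132 CPM in WT and 329 ± 68.2 CPM in S1PR4-/- GC B (n = 6 each, log2 fold change -0.23, 95% interval -0.70 to 0.23). Cd79a had an interval of -0.42 to 0.20, Cd79b of -0.29 to 0.20, and Blnk, the narrowest, of -0.19 to 0.068. In non-GC B cells 0 of the 9 genes passed in any of the 3 tests, against 0.0537% of 13038 genes called by edgeR. Again 0 had an unadjusted edgeR p under 0.05, beside 593 of the 13038 genes. The intervals ran from -0.065 to 0.23 for Cd79a, from -0.13 to 0.15 for Cd22 and, at their widest, from -0.51 to 0.23 for Cr2. The interaction of genotype with the GC B against non-GC B difference was tested as well: 0 of the 9 genes passed edgeR, DESeq2 or limma-voom, and 0% of 14490 genes were called by edgeR. Here 0 of the 9 had an unadjusted edgeR p under 0.05, beside 664 of the 14490 genes.

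In T cells these genes were read against the level in WT non-GC B cells, since T cell samples can carry RNA from B cells. The median over the 9 genes was 1.62 ± 0.891% of the WT non-GC B level in WT Tfh, 0.315 ± 0.320% in S1PR4-/- Tfh, 0.237 ± 0.143% in WT non-Tfh and 0.0906 ± 0.0619% in S1PR4-/- non-Tfh samples (mean ± SD, n = 6 each). The median over the 12 other B cell markers was 1.34 ± 0.709%, 0.501 ± 0.284%, 0.192 ± 0.123% and 0.0621 ± 0.0294% in the same order. Cd79a varied widely among Tfh samples: WT Tfh replicates 1 to 3 held Cd79a at 38.6 to 47.1 CPM and replicates 4 to 6 at 1.64 to 5.24 CPM, and S1PR4-/- Tfh replicate 3 held 21.2 CPM while the other 5 held 0.0222 to 1.66 CPM. In S1PR4-/- Tfh replicate 1 this was a single count of Cd79a. Of the 12 markers, Pou2af1 stood apart at 20.4% to 32.3% of the WT non-GC B level in all 12 Tfh samples.

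**Figure D4:**
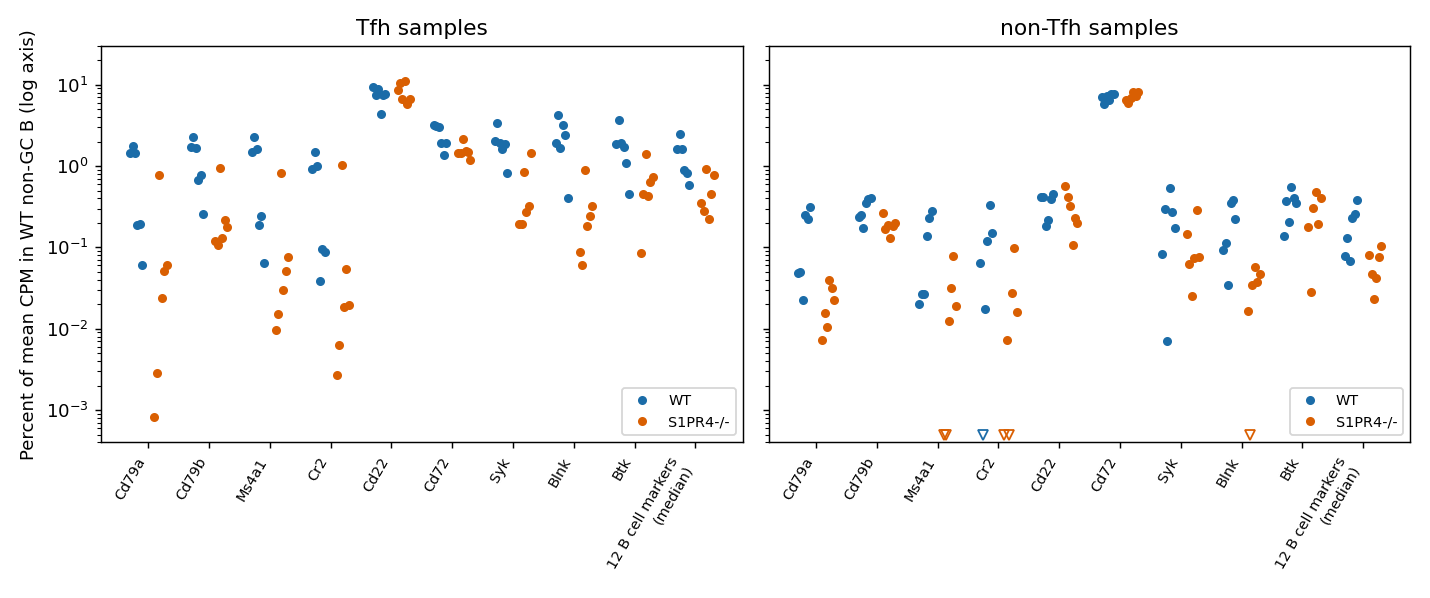
Level of each of the 9 genes in every Tfh (left) and non-Tfh sample (right) as a percent of its mean CPM in WT non-GC B, on a log axis, with the median of 12 other B cell markers at the far right of each panel; blue is WT, orange S1PR4-/-, and open triangles are samples with 0 counts. Cd22 in Tfh samples (4.43% to 11.03%) and Cd72 in non-Tfh samples (5.86% to 8.17%) lie above all the other genes, and the S1PR4-/- Tfh sample at the top of the Cd79a column is replicate 3.

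Cd22 was high in every Tfh sample. It ran from 104.5 to 223 CPM, median 181 CPM, in WT Tfh and from 4.34 to 10.6 CPM, median 9.55 CPM, in WT non-Tfh samples. S1PR4-/- samples ran from 136 to 260 CPM, median 180 CPM, in Tfh and from 2.54 to 13.3 CPM, median 6.47 CPM, in non-Tfh samples. No Tfh sample came near a non-Tfh sample, and the log2 fold change was 4.46 (SE 0.244, edgeR adjusted p = 1.05e-09) in WT and 4.76 (SE 0.337, edgeR adjusted p = 2.35e-08) in S1PR4-/- cells. In S1PR4-/- Tfh replicate 1, with its single count of Cd79a, Cd22 was at 201 CPM. Without the 4 Tfh libraries that held the most B cell marker RNA, the log2 fold change of Cd22 was 4.26 in WT and 4.81 in S1PR4-/- cells. The antisense gene Gm29439, which covers 479 bp or 9.5% of the Cd22 exons, reached at most 0.154 CPM in Tfh samples. The 10 myeloid markers summed to 14.4 to 452 CPM in Tfh and 10.6 to 43.0 CPM in non-Tfh samples, and Cd22 was at 159 CPM in the Tfh sample with the lowest myeloid sum and 156 CPM in the one with the highest. The part of B cell RNA, antisense reads and myeloid cells in the Cd22 values was not tested.

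Cd72 went the other way and was lower in Tfh than in non-Tfh cells. WT Tfh samples were at 10.2 to 23.4 CPM, median 18.1 CPM, and WT non-Tfh samples at 43.2 to 56.6 CPM, median 53.1 CPM. S1PR4-/- Tfh samples were at 8.74 to 15.8 CPM, median 10.9 CPM, and S1PR4-/- non-Tfh samples at 44.2 to 60.3 CPM, median 52.1 CPM. The groups did not overlap in either genotype (log2 fold change -1.54, SE 0.179, edgeR adjusted p = 2.44e-06 in WT and -2.20, SE 0.129, edgeR adjusted p = 3.8e-09 in S1PR4-/- cells). Tesk1, which shares exons with it, was lower in Tfh as well, at 30.5 ± 2.35 against 70.9 ± 9.78 CPM in WT and 29.9 ± 1.25 against 68.7 ± 4.64 CPM in S1PR4-/- cells (log2 fold change -1.21, 95% interval -1.40 to -1.03, and -1.19, interval -1.31 to -1.06). The interval of Cd72 met that of Tesk1 in WT cells (-1.92 to -1.16) and lay below it in S1PR4-/- cells (-2.48 to -1.93). How many of the reads counted to Cd72 in T cells came from Tesk1 was not tested.

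**Figure D5:**
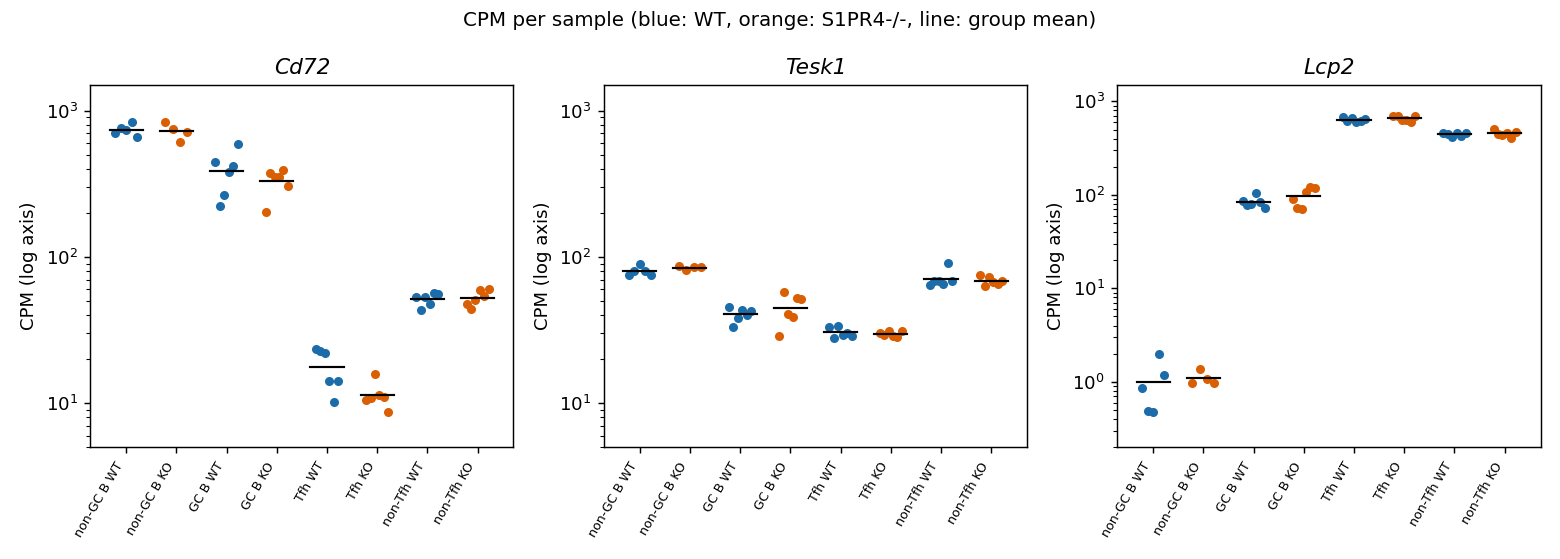
Level in CPM on a log axis of Cd72, of Tesk1, whose exons overlap those of Cd72 on the opposite strand, and of Lcp2, the T cell relative of Blnk, in all 45 samples; blue is WT, orange S1PR4-/-, and lines are group means. Cd72 and Tesk1 are both lower in Tfh than in non-Tfh and lower in GC B than in non-GC B samples, and Lcp2 lies near 1 CPM in non-GC B and between 70.1 and 120 CPM in GC B.

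All 9 genes differed between WT Tfh and non-Tfh cells, 8 higher in Tfh and Cd72 lower, against 43.2% of 13481 tested genes called, 22.8% higher and 20.4% lower. In S1PR4-/- cells 8 of the 9 were tested, since Cr2 did not pass the low-count filter, and 5 were higher and 1 lower, against 43.4% of 13390 genes called 22.3% higher and 21.1% lower. Only some of these calls held without the libraries of most B cell marker RNA. Those libraries were chosen by that RNA after seeing the data, so lower values of B cell genes follow in part from the choice. Without WT Tfh replicates 1 to 3, the log2 fold change of Cd79a was -0.015 against 2.47 with them, that of Cr2 was -0.61 against 2.40, and that of Ms4a1 was 0.47 against 3.01, and none of these was called. Without S1PR4-/- Tfh replicate 3, Cd79a was at 0.40 against 2.87 and Ms4a1 at 0.62 against 2.84, and neither was called. Leaving out single libraries also cost calls. In WT cells Cr2 lost its call without any of Tfh replicates 1, 2 and 3 or non-Tfh replicates 1, 2, 3 and 4. In S1PR4-/- cells Cd79a lost its call without any of non-Tfh replicates 1, 2, 3, 5 and 6, and Ms4a1 without any of non-Tfh replicates 1, 2, 3, 4 and 6.

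In WT cells Cd79b, Cd22, Cd72 and the signaling genes Blnk, Syk and Btk kept their calls in that setting. Blnk was at 2.74 to 29.0 CPM, median 14.7 CPM, in WT Tfh and at 0.233 to 2.58 CPM, median 1.14 CPM, in WT non-Tfh samples, so that no samples overlapped (log2 fold change 3.53, SE 0.561, edgeR adjusted p = 5.46e-05). Without the 3 WT libraries it was 3.34 (edgeR adjusted p = 0.000998). Syk was at 6.77 to 28.2 CPM, median 15.7 CPM, in WT Tfh and 0.0582 to 4.42 CPM, median 1.82 CPM, in WT non-Tfh samples, again apart (log2 fold change 3.10, SE 0.554, edgeR adjusted p = 0.000164, and 2.67, adjusted p = 0.00507, without the 3 libraries). Btk was at 1.44 to 11.7 CPM in WT Tfh and 0.434 to 1.75 CPM in WT non-Tfh samples (log2 fold change 2.40, SE 0.436, edgeR adjusted p = 0.000185). In S1PR4-/- cells without replicate 3, Blnk was at 2.46 and Syk at 2.12, both called by edgeR. Myeloid cells are known to hold Syk and Btk, and the highest Syk among S1PR4-/- Tfh samples, 11.9 CPM in replicate 6, came with the highest myeloid marker sum, 452 CPM. The part of these cells in the Syk and Btk values was not tested.

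Between genotypes, Blnk alone of the 9 genes was called in Tfh cells, against 0.496% of 13495 tested genes called and 0.4% called lower. It was at 12.9, 29.0, 11.2, 21.6, 16.5 and 2.74 CPM in WT Tfh and at 0.599, 0.414, 6.01, 1.25, 1.67 and 2.19 CPM in S1PR4-/- Tfh samples. The groups overlapped through WT replicate 6 and S1PR4-/- replicate 3 (log2 fold change -2.99, SE 0.615, edgeR adjusted p = 0.0394). The call was lost on leaving out any of 8 of the 12 libraries, WT replicates 1, 2, 3 and 5 or S1PR4-/- replicates 1, 4, 5 and 6, with adjusted p from 0.0555 to 0.0930 and log2 fold changes from -3.07 to -2.71. The 12 B cell markers summed to 560 to 1363 CPM in WT and 293 to 943 CPM in S1PR4-/- Tfh samples. None of these markers was at 0 throughout a group. Their sums were 623 and 619 CPM in WT replicates 4 and 5, and 1033 and 963 CPM in WT replicates 1 and 3. The S1PR4-/- sample at 943 CPM was replicate 6. Among WT samples, replicate 2 was highest both by the sum, at 1363 CPM, and by Blnk, and replicate 6 was lowest by both, with a sum of 560 CPM. By the median percent of the 12 markers, S1PR4-/- replicate 3 was highest of its group at 0.927%, as it was by Blnk, and replicate 6 was at 0.768%. The part of B cell RNA in the Blnk values was not tested. The 8 plasma cell markers summed to 285 to 662 CPM in WT and 241 to 289 CPM in S1PR4-/- Tfh samples, highest in WT replicates 4 and 5 at 662 and 567 CPM, and 3 of the 7 tested were called lower, and the part of plasma cells in the Blnk values was not tested. With the score of B cell markers as a covariate 0 of the 9 genes were called and Blnk was at -1.89 (edgeR adjusted p = 0.157), limma-voom gave Blnk -3.34 with an adjusted p of 0.0548, and without the 4 libraries that held the most B cell marker RNA the log2 fold change of Blnk was -3.50 with an adjusted p of 0.131.

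The other 8 genes did not pass in Tfh cells. With Blnk counted, 7 of the 9 had an unadjusted edgeR p under 0.05, beside 2586 of the 13495 tested genes. Cd79a had a log2 fold change of -2.49 (95% interval -4.90 to -0.079), Cd79b of -2.14 (-3.43 to -0.85), Syk of -1.86 (-2.92 to -0.81) and Btk of -1.53 (-2.67 to -0.40). Cd22, high in these cells, was at 179 ± 40.9 CPM in WT and 194 ± 52.0 CPM in S1PR4-/- Tfh samples (n = 6 each), with a log2 fold change of 0.10 and an interval of -0.29 to 0.50. Cd72 was at -0.65 (-1.09 to -0.22, edgeR adjusted p = 0.100). DESeq2 called 4 of the 9 genes, Blnk with Cd79b, Cd72 and Syk. Without S1PR4-/- Tfh replicate 3, edgeR called 5, Blnk with Cd79a, Cd79b, Ms4a1 and Cr2, whose fold changes then ran from -4.96 to -3.04 for the latter 4.

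In non-Tfh cells 0 of the 8 tested genes passed edgeR between genotypes and limma-voom called 0, against 0.114% of 13197 genes called by edgeR. An unadjusted edgeR p under 0.05 was found for 4 of the 8, beside 1486 of the 13197 genes. DESeq2 called 2, Cd79a and Blnk. Cd79a was at 0.611 to 8.59 CPM, median 3.67 CPM, in WT and 0.195 to 1.06 CPM, median 0.515 CPM, in S1PR4-/- non-Tfh samples, which overlap (log2 fold change -2.84, SE 0.627, edgeR adjusted p = 0.0815). The 12 B cell markers summed to 199 to 334 CPM in WT and 166 to 218 CPM in S1PR4-/- non-Tfh samples. With a score of these markers as a covariate 0 of the 8 tested genes were called, and the log2 fold changes of Ms4a1, Syk and Btk became positive, at 0.25, 0.97 and 0.53. Cd72 was at 51.7 ± 5.15 CPM in WT and 52.7 ± 6.36 CPM in S1PR4-/- non-Tfh samples (log2 fold change 0.029, interval -0.16 to 0.22). The interaction of genotype with the Tfh against non-Tfh difference gave 0 of the 9 genes in edgeR, DESeq2 and limma-voom, against 0.0139% of 14401 genes called by edgeR. An unadjusted edgeR p under 0.05 was found for 2, Cd79b and Cd72, beside 1325 of the 14401 genes.

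Across the 8 groups, the 4 B cell groups stood above the 4 T cell groups for each of the 9 genes. Within B cells the ranges of WT and S1PR4-/- samples of a population overlapped for all 9 genes, and within T cells the only neighbours in the order of means that did not overlap were Tfh and non-Tfh for Cd22 and for Cd72. Group profiles were compared by the root mean square difference of centred log2 CPM over the 8 group means, among 12018 other genes, with a prior count of 2 that draws together genes at low levels in T cells. Cr2 was nearest to Srpk3 (0.19) and Fcer2a (0.40), and Cd79a to Fcer2a (0.40) and Srpk3 (0.41). The genes nearest to Cd79b, the light chain segments Igkv6-32 and Igkv12-46, had mean levels of 0.00440 to 1.02 CPM in T cell groups, where the prior count sets their values, so no likeness is read from them. Among the genes near Ms4a1 was the exchange factor Rasgrp3 (0.62). Syk was nearest to its downstream phospholipase Plcg2 (0.30) and to H2-Eb2 (0.34), Blnk to Rasgrp3 (0.33) and Iglc3 (0.39), and Btk to Dennd5b (0.20) and Phka1 (0.24). In T cell groups H2-Eb2 had mean levels of 0.0353 to 0.871 CPM and Phka1 of 0 to 0.979 CPM, so no likeness is read from these genes either. Dennd5b was at 0.197 to 1.84 CPM there, so its likeness to Btk rests in part on the prior count. Cd22 was nearest to Cybb (0.55) and Tlr4 (0.56), and Cd72 to H2-Ob (0.28) and Nuak2 (0.43). Among the 9 genes themselves Cd79a and Cr2 were nearest to each other (0.32), and Ms4a1 and Cd72 were farthest apart (3.58).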

How the data were processed

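Gene-level RNA-seq values were available for all 45 samples of 8 groups. In the methods, the authors name Cutadapt 2.10 for adapter removal, STAR 2.5.3 (2 passes, genome mm10) for alignment, Picard for marking duplicates and RSEM 1.3.0 for the expected counts per gene, and these expected counts were deposited without scaling; 8.83% of the values are not whole numbers, and all were rounded for the tests. Libraries were made with a stranded total RNA kit, and the strand setting used in counting is not given in the sources used here. RSEM divides reads that fit several genes. The methods name GENCODE M30, but the row names match GENCODE M21, which gave gene positions and exon lengths.

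Low-count genes were removed with filterByExpr, sizes were scaled by TMM, and each comparison was fitted on its own samples with the quasi-likelihood test of edgeR 4.0.16 in R 4.3.3; genes passed at a Benjamini-Hochberg adjusted p under 0.05 and a fold change over 1.5, interactions at the adjusted p alone. CPM use TMM sizes over all 45 samples. The alternatives were DESeq2 1.42.0 size factors and test, limma 3.58.1 voom, no filter, all 8 groups in a single fit, no immunoglobulin genes, a replicate block, a B cell marker score as covariate, and each replicate left out. The interaction in T cells was not fitted with single replicates left out.

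The 9 genes and all lists were chosen with earlier results of these data known. Also named were the 3 called genes of each pathway role with the largest WT GC B fold change, the T cell counterparts Zap70, Lcp2 and Lck, S1pr4, overlapping genes, and for each of the 9 genes the 2 most alike group profiles among genes of at least 1 CPM on average; some genes that these rules name are not reported here. Pou2af1 and Pax5 were named after their values were seen.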

Additional observations from a re-analysis of the deposited data

Results flagged for a closer look

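In 10 of the 72 sets of values of a gene in a group, a single sample lay far from the others by Dixon's criterion, which chance alone meets in about 1 in 20 sets. Of these, 6 were the highest value in S1PR4-/- Tfh replicate 3, with 21.2 CPM of Cd79a, 23.6 CPM of Cd79b, 17.1 CPM of Ms4a1, 8.38 CPM of Cr2, 15.8 CPM of Cd72 and 6.01 CPM of Blnk. The median of the 12 other B cell markers in that sample was 0.927% of the WT non-GC B level, the highest of the S1PR4-/- Tfh samples. The other 4 were spread over other samples. Cd79b was highest in WT non-GC B replicate 3 at 2745 CPM, and Ms4a1 lowest in S1PR4-/- non-GC B replicate 1 at 1750 CPM. Cr2 was highest in S1PR4-/- non-Tfh replicate 5 at 0.799 CPM, and Cd22 was lowest in WT Tfh replicate 4 at 104.5 CPM.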

How the results depend on the processing

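For the 9 genes, DESeq2 size factors and the absence of a low-count filter changed no direction or call. In a single fit of all 8 groups, 2 of the 9 genes were called in GC B against non-GC B cells of each genotype, with Blnk at -0.0014 in WT and -0.050 in S1PR4-/- cells, and without immunoglobulin genes Blnk was at -0.040 in S1PR4-/- cells. Between genotypes, DESeq2 called 14 genes in GC B, 16 in non-GC B, 184 in Tfh and 56 in non-Tfh cells, with 4 of the 9 in Tfh and 2 in non-Tfh cells, and 6 and 76 genes in the interactions in B and T cells. The single fit called 25 genes in non-GC B and 153 in Tfh cells (4 of the 9), and 5 in the B cell interaction. In the T cell interaction, limma-voom called 1 gene, with Cd79a at -1.92 and Cr2 at -0.85. The cause of these changes was not tested.

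The mean correlation of same-numbered deviations lay between -0.015 and 0.114 over the comparisons. It was highest between Tfh and non-Tfh samples, at 0.100 (0.045 to 0.205) in WT and 0.114 (0.087 to 0.163) in S1PR4-/- cells. No label says whether the replicate numbers pair samples, and the main tests left the samples unpaired. With the replicate block, 0 of the 9 genes were called between genotypes in Tfh cells (Blnk -3.14, edgeR adjusted p = 0.0723) and 1, Cd79a, in non-Tfh cells, Blnk was at -0.015 in GC B against non-GC B cells of S1PR4-/- mice, Cd22 at -0.026 and Blnk at 0.0036 between genotypes in non-GC B, and 41 genes were called in the T cell interaction, with Cd79a at -1.11 and Cr2 at -0.76.

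With the B cell marker score as covariate, 0 of the 9 and 31 genes in all were called between genotypes in Tfh cells, with Cd79a at 0.26, Ms4a1 at 0.30, Cr2 at 0.97 and Cd22 at -0.028. In non-Tfh cells it gave 9 genes, with Ms4a1 at 0.25, Syk at 0.97 and Btk at 0.53, and in the T cell interaction 1 gene. For WT Tfh against non-Tfh cells it gave 5 of the 9, with Cd79a at -2.30, Cd79b at -0.26, Ms4a1 at -1.98 and Cr2 at -2.34, and for S1PR4-/- cells Cd79a was at -4.55, Cd79b at -2.02, Ms4a1 at -3.32, Syk at -0.68 and Btk at -0.61. The score is built from B cell genes and so takes up their variation by construction. Leaving out the 4 Tfh libraries with the most B cell marker RNA, chosen after seeing the data, gave 0 of the 9 and 13 genes in all between genotypes, 0 genes in the T cell interaction with Ms4a1 at 0.16, Cd79a at -0.015 and Cr2 at -0.61 in WT and Cd79b at -0.32 in S1PR4-/- Tfh against non-Tfh cells.

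With each library left out in turn, 0 to 5 of the 9 genes and 15 to 117 in all were called between genotypes in Tfh cells, 0 to 1 and 11 to 27 in non-Tfh cells, and 0 to 1 genes in the B cell interaction. Directions changed for values near 0: Syk in WT GC B against non-GC B (-0.10 to 0.11) and Blnk in S1PR4-/- cells (-0.041 to 0.056), and between genotypes Cd79b (-0.12 to 0.024), Cd22 (-0.15 to 0.0076) and Btk (-0.0034 to 0.081) in GC B, Syk (-0.16 to 0.068), Btk (-0.098 to 0.015), Cd72 (-0.088 to 0.061), Blnk (-0.050 to 0.023), Cd22 (-0.025 to 0.040) and Ms4a1 (-0.069 to 0.016) in non-GC B, Cd22 in Tfh (-0.016 to 0.18), Cd72 in non-Tfh cells (-0.019 to 0.074), and in the B cell interaction Cr2 (-0.083 to 0.19) and Ms4a1 (-0.066 to 0.044). Cd79b in S1PR4-/- Tfh against non-Tfh cells ran from -0.32, without S1PR4-/- Tfh replicate 3, to 0.77. Some T cell values rest on few counts, down to 0 for Blnk in S1PR4-/- non-Tfh samples, so that depth limits them.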

Other observations

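Other genes known from B cells differed in how far they were found in T cell samples. Pax5, the transcription factor that sets B cell identity, had a median of 4.76% of its WT non-GC B level in WT Tfh and 2.98% in S1PR4-/- Tfh samples. In WT Tfh against non-Tfh cells the log2 fold change of Zap70 was 0.92 and that of the Src family kinase Lck -0.012. In S1PR4-/- cells Zap70 was at 0.82.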
